A study of Mus musculus with 12 samples.

Results

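The 32 genes described here cover cholesterol synthesis, the sensing of sterols, the movement and esterification of sterols inside the cell, and the liver X receptors (LXR) with their targets for sterol efflux and uptake control. They were chosen by name. Liver RNA had been measured by the authors in 12 mice. Of these 6 had received adenovirus carrying GFP, which served as control, and 6 had received adenovirus carrying ChREBP, a transcription factor that responds to glucose and is the product of Mlxipl. They were male C57BL/6J mice of 8 weeks, injected through the tail vein and studied fed, 3 weeks later, with 1 array per liver and no untreated animals among the samples used here. The sources used here do not name the promoter of the vectors, the species or isoform of the ChREBP construct or the days of hybridisation. Vector and mouse transcripts of Mlxipl are thus counted together, and no array batch was tested. A row with a single matching gene symbol was found for 28 of the 32 genes, and Acat2, Soat1, Soat2 and Nr1h2 were not analysed here.

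Cholesterol is built from acetyl-CoA through mevalonate to farnesyl diphosphate, and from there through squalene and lanosterol. When sterols run low, the membrane protein Scap carries the precursor of SREBP2, the product of Srebf2, from the endoplasmic reticulum to the Golgi, where it is cleaved into a transcription factor for the genes of synthesis. When sterols are plentiful, the Insig proteins hold Scap back. The LXR receptors are activated by oxysterols and raise genes that export cholesterol or limit its uptake. Setting ChREBP livers against GFP livers asks which of these transcripts differ under an excess of ChREBP, and it places the SREBP2-driven genes of synthesis beside the LXR-driven genes of efflux.

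Transcripts of cholesterol synthesis were lower in ChREBP livers, most of all those of the steps from squalene to cholesterol. Every value below is on the log2 scale of RMA, the normalization used by the authors, and every difference is ChREBP minus GFP. The threshold was an adjusted p below 0.05 in limma's test, with Benjamini-Hochberg adjustment over 19938 genes. Of the 28 measured genes 20 passed (71.4%), against 27.0% of all genes. There were 18 lower, against a background of 13.7%, and 2 higher, against 13.3%. The median difference over the 28 genes was -0.35, and that of all genes was -0.04. In 13 of them every ChREBP array lay below every GFP array, which held for 6.83% of all genes, and in 0 of them did every ChREBP array lie above, against 8.33%. The liver was read whole, so fewer cells of a type and less RNA per cell cannot be told apart.

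The delivered gene checked the labels. Mlxipl ran from 9.07 to 9.61 on the GFP arrays and from 10.74 to 10.96 on the ChREBP arrays (exact two-sided permutation test, p = 0.00216). Albumin (Alb), the defining product of hepatocytes, was at 13.12 in GFP livers and 13.05 in ChREBP livers. Of 6 measured hepatocyte markers 4 were lower in ChREBP livers, against 13.7% of all genes. The summed linear level of the 6 was 49373 to 53982 on GFP arrays and 43892 to 48227 on ChREBP arrays. That sum moved the same way as the genes of synthesis, and its part in their difference was not tested. The 18 synthesis enzymes had a median difference of -0.46 and the 6 hepatocyte markers one of -0.15, in a range from -0.43 (Cps1) to -0.04 (Apoa2). The GFP means of these markers were 12.66 to 13.51, close to the highest value on any array (13.68).

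**Figure D1:**
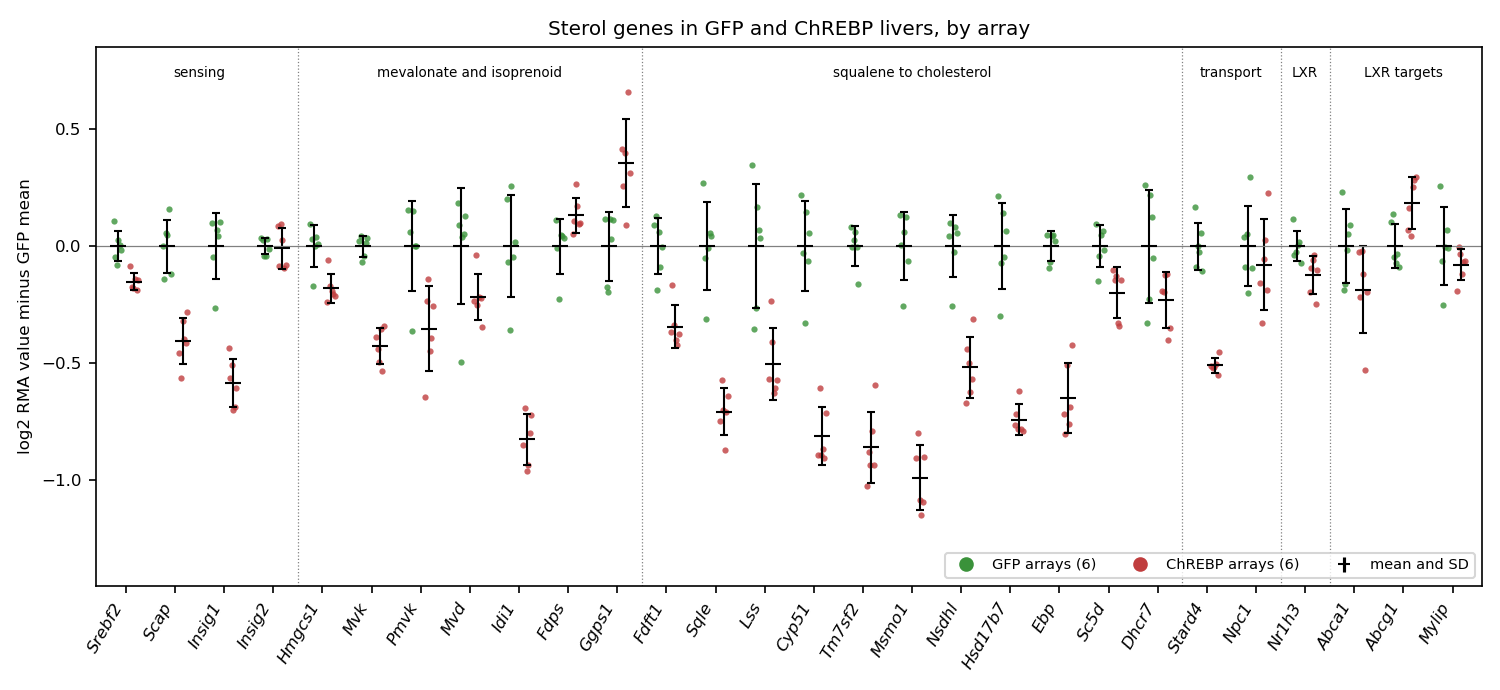
RMA values on the log2 scale minus the mean of the GFP arrays (vertical axis) of the 28 measured genes (horizontal axis), grouped by role, with green points for the 6 GFP arrays, red points for the 6 ChREBP arrays and a bar in black for each mean and its SD. The red points of the genes from Fdft1 to Dhcr7 lie mostly below the green ones, with Msmo1 lowest at a mean difference of -0.99, whereas Ggps1 and Abcg1 lie higher and Insig2 at -0.01.

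In the plot of the members by array, the ChREBP points of Scap, Insig1, Mvk, Idi1, Stard4 and of most genes between Sqle and Ebp are clear of the GFP points. Those of the LXR genes on the right overlap the GFP points.

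The promoters of these genes were searched for short sequence motifs, which had no part in how the genes were chosen. SREBP2 works on sterol regulatory elements together with NF-Y, which binds CCAAT, and Sp1, which binds GC boxes. RefSeq windows of GRCm38.p6, from 250 bases before to 50 after the transcription start, were at hand for 22 of the 28 measured genes, 15 of them enzymes. Both strands were searched, and a gene counted when any of its windows held the letters. The CCAAT box was found in 15 of 15 enzyme genes, against 41.1% of the 27025 genes in the table and 37.4% of its 32851 windows. In 14 of these 15 enzyme genes a match lay within 120 bases before the start. The GC box (GGGCGG) was found in 13 of 15 (86.7%), against 38.2% of genes. Neither box was particular to the enzymes, as each was found in 19 of all 22 genes. The CCAAT box also lay in Srebf2 and Insig1, and in Insig2 and Mylip, which did not pass. A sterol regulatory element spelled TCACNCCAC occurred in Hmgcs1 only, at bases -137 to -129, against 1.44% of genes. No other spelling was searched, so a gene without a match is not shown to lack such an element. The E-box CACGTG occurred in the enzyme genes Dhcr7, Hsd17b7 and Sc5d and in Insig1, Scap and Abca1, against 8.09% of genes. The carbohydrate response element, the paired E-box motif to which ChREBP binds, was matched in 0 of 22 genes, against 0.137% of genes. At so low a share 0 was likely for any 22 genes, and nothing is read from it. No matches of different motifs overlapped in these genes. These are matches of letters in a short window, and binding was not measured. The sequences printed are the 250 bases before the start, 5' to 3' on the gene's strand. Capitals mark CCAAT boxes in either orientation and the sterol regulatory element. Hmgcs1 (chr13:119690101-119690350, plus strand) is shown as the enzyme gene with a match of that spelling, and Srebf2 (chr15:82147019-82147268, plus strand) as the gene of the regulator. Msmo1 (chr8:64733579-64733828, minus strand), the enzyme gene with the largest fall, and Ggps1 (chr13:14063489-14063738, minus strand), the enzyme gene that rose, were picked after their values were seen.
Hmgcs1: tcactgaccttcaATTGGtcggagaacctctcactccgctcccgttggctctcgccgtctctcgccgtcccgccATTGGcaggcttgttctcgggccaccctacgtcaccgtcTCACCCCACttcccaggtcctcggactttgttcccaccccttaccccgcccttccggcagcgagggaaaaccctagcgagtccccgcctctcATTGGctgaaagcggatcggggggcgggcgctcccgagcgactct
Msmo1: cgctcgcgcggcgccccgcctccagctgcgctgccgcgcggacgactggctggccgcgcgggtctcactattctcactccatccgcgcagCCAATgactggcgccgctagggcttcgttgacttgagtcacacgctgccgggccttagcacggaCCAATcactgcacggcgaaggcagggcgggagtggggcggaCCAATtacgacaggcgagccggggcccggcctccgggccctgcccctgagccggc
Ggps1: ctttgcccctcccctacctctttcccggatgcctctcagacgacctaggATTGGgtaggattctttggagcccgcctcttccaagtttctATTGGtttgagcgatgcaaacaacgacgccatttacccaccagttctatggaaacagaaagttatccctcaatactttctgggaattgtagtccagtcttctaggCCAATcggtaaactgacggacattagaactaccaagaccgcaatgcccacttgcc
Srebf2: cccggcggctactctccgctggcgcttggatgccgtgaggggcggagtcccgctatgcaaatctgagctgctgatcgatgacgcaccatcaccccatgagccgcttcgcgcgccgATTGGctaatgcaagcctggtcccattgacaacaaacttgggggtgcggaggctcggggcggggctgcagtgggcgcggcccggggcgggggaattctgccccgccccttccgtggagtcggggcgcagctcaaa

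Msmo1 and Ggps1, whose transcripts differed in opposite directions, each held 3 CCAAT boxes in these windows.

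**Figure D2:**
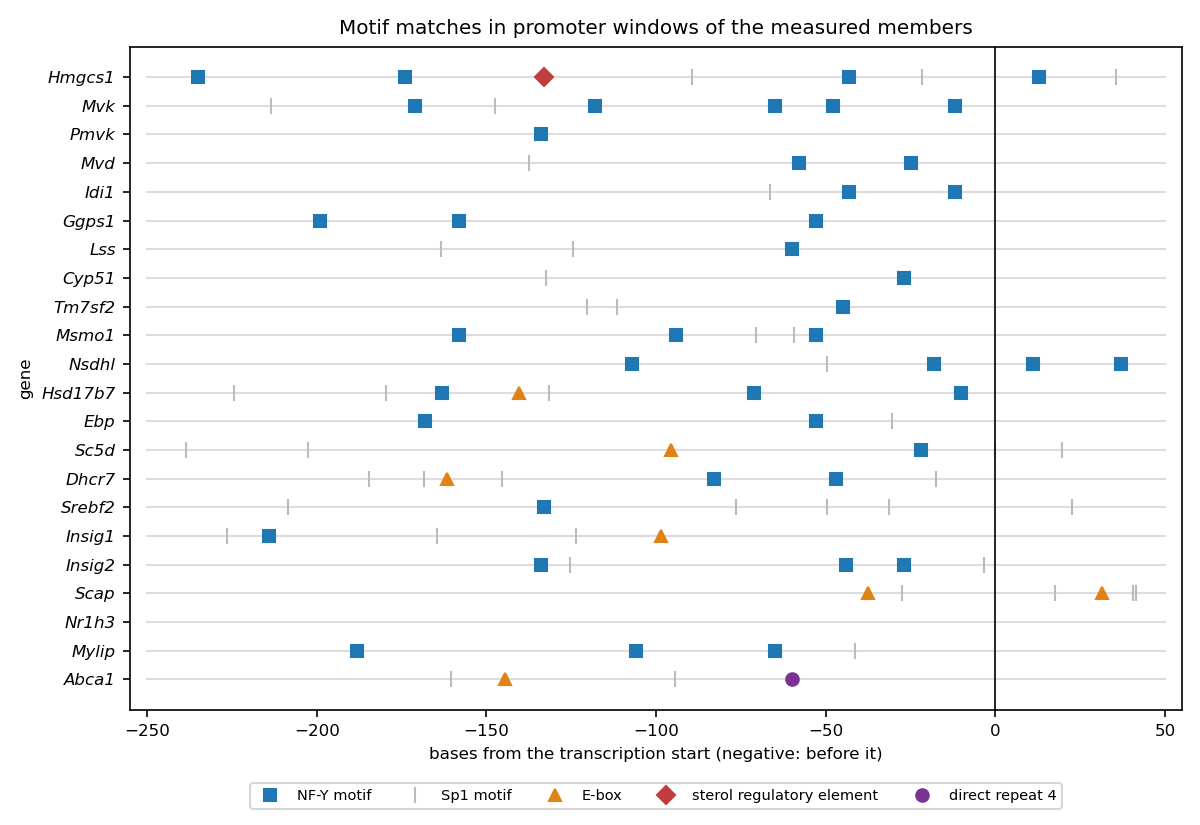
Matches of the searched motifs in the promoter window of the 22 measured genes with a RefSeq window (vertical axis), by distance in bases from the transcription start (horizontal axis, negative before it). Squares (the NF-Y motif, CCAAT) lie in every enzyme gene from Hmgcs1 to Dhcr7 and in Srebf2, Insig1, Insig2 and Mylip. The diamond (sterol regulatory element) lies in Hmgcs1 and the circle (direct repeat 4, an LXR motif) in Abca1.

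In the plot of promoter matches the squares of the enzyme genes gather close to the start, and Nr1h3 has no mark. The 6 measured genes without a window (Fdps, Fdft1, Sqle, Stard4, Npc1 and Abcg1) are left off it.

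The steps from squalene to cholesterol were measured in 11 genes. Of these 10 fell, against 13.7% of all genes, and 0 rose, against 13.3%. The median difference was -0.65, and 11 of 11 lay below 0. In 6 of the 11 the fall passed and was at least 1.5-fold. Over all 19938 genes 1111 passed with a change of that size, in either direction. Msmo1, which oxidises methyl groups of early sterols, had the largest fall. It ran from 10.37 to 10.76 (median 10.66) on GFP arrays and from 9.48 to 9.83 (median 9.63) on ChREBP arrays. The groups were clear of each other by more than the width of either, and the means of 10.63 ± 0.15 and 9.64 ± 0.14 (SD, n = 6 each) differed by -0.99 (SE 0.08, 1.98-fold lower, adjusted p = 5.71e-07). Tm7sf2, a sterol reductase that acts just before it, ran from 8.48 to 8.73 (median 8.65) in GFP livers and from 7.62 to 8.05 (median 7.74) in ChREBP livers. Its groups did not overlap, and the difference was -0.86 (SE 0.07, adjusted p = 6.97e-07). Lbr, on the list of further steps, encodes another reductase for the same reaction and did not pass (difference 0.15, SE 0.08, adjusted p = 0.196). Cyp51, the lanosterol demethylase, ran from 10.33 to 10.88 (median 10.67) in GFP livers and from 9.75 to 10.05 (median 9.78) in ChREBP livers. It fell by 0.81 (SE 0.09, adjusted p = 8.94e-06), again without overlap.

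Nsdhl and Hsd17b7 encode the dehydrogenase and the reductase that complete the removal of the methyl groups begun by Msmo1. Hsd17b7 ran from 9.50 to 10.02 (median 9.81) on GFP arrays and from 9.01 to 9.19 (median 9.03) on ChREBP arrays, and it fell by 0.74 (SE 0.08, adjusted p = 5.70e-06). Nsdhl ran from 10.57 to 10.93 and from 10.16 to 10.52, and it fell by 0.52 (SE 0.07, adjusted p = 0.000107). The groups of both genes were apart, those of Nsdhl by little. Ebp, the sterol isomerase that follows, ran from 10.71 to 10.85 (median 10.84) in GFP livers and at most 10.38 (median 10.10) in ChREBP livers. Its groups did not overlap, and its difference was -0.65 (SE 0.07, adjusted p = 5.47e-06).

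The enzymes on either side of this stretch changed less, apart from Sqle. Sqle, the epoxidase that commits squalene to sterols, ran from 9.69 to 10.27 (median 10.02) in GFP livers and from 9.13 to 9.43 (median 9.29) in ChREBP livers, and it fell by 0.71 (SE 0.08, adjusted p = 1.88e-05) without overlap. Lss, the cyclase that makes lanosterol, spread widely in GFP livers, from 7.14 to 7.84, against 6.86 to 7.26 in ChREBP livers. The groups overlapped, and the difference was -0.50 (SE 0.11, adjusted p = 0.00398). Fdft1, the squalene synthase, differed by -0.35 (SE 0.06, adjusted p = 0.000853) on its brighter row and by -0.50 on its other row. On the brighter row GFP values of 10.90 to 11.22 overlapped ChREBP values of 10.67 to 10.93.

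The last 2 enzymes measured were near the threshold. Sc5d, the desaturase before the final reduction, ran from 11.88 to 12.13 in GFP livers and from 11.69 to 11.93 in ChREBP livers, a difference of -0.20 (SE 0.06, adjusted p = 0.0224). The call was lost without ChREBP 4 and ChREBP 5 (adjusted p = 0.102) and ranged from 0.00999 to 0.102 over its alternatives. Dhcr7, a reductase at the end of the pathway, did not pass, at 8.35 ± 0.24 in GFP and 8.12 ± 0.12 in ChREBP livers (SD, n = 6 each, difference -0.23, adjusted p = 0.103). Without GFP 2, the lowest GFP array for Dhcr7 at 8.02, its difference was -0.30 (adjusted p = 0.0274, range over its alternatives 0.0274 to 0.199).

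The mevalonate and isoprenoid enzymes were mixed. The median difference of 7 measured genes was -0.22. Of them 4 fell, against 13.7% of all genes, 1 rose, against 13.3%, and 2 did not pass. Idi1, which isomerises the isoprenoid unit, had the largest fall of them. It ran from 9.90 to 10.51 (median 10.24) on GFP arrays and from 9.30 to 9.57 (median 9.43) on ChREBP arrays, a difference of -0.83 (SE 0.09, adjusted p = 1.34e-05). Its other row gave -0.87. Mvk, the mevalonate kinase, was tight in both groups, from 7.22 to 7.34 (median 7.31) and from 6.76 to 6.95 (median 6.88), and it fell by 0.43 (SE 0.05, adjusted p = 8.67e-06). Both genes separated the groups fully.

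Hmgcs1, which condenses acetyl units ahead of mevalonate, was lower by a small amount. Its values were 10.78 to 11.04 (median 10.97) in GFP livers and 10.71 to 10.89 (median 10.75) in ChREBP livers, a difference of -0.18 (SE 0.05, adjusted p = 0.0164). The groups overlapped through GFP 3, the lowest of the GFP arrays, and ChREBP 2, the highest of the ChREBP arrays. Pmvk, the next kinase after Mvk, ran from 7.81 to 8.33 and from 7.53 to 8.03, a difference of -0.35 (SE 0.10, adjusted p = 0.0155). Both calls were lost without ChREBP 4 and ChREBP 5 (adjusted p = 0.0558 for Hmgcs1 and 0.0594 for Pmvk) and with a block for replicate number (0.0514 and 0.0564). That of Hmgcs1 was also lost with quantile normalization repeated (0.0589) and without GFP 6 and ChREBP 6 (0.0592). Over their alternatives the adjusted p was 0.00324 to 0.0592 for Hmgcs1 and 0.00194 to 0.0594 for Pmvk.

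Mvd, the decarboxylase between Pmvk and Idi1, did not pass, with GFP values of 6.88 to 7.56 and ChREBP values of 7.03 to 7.34 (difference -0.22, SE 0.10, adjusted p = 0.120). GFP 3, at 6.88, lay below every ChREBP array. Without it the difference in Mvd was -0.32 (adjusted p = 0.00102, range over its alternatives 0.00102 to 0.306). Fdps, the farnesyl diphosphate synthase at the branch point, was at 10.94 ± 0.12 in GFP and 11.08 ± 0.07 in ChREBP livers (SD, n = 6 each, difference 0.13, adjusted p = 0.113). Fdps passed as higher with quantile normalization repeated (0.16, adjusted p = 0.0459, range over its alternatives 0.0459 to 0.224).

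Ggps1 was the only one of the 18 measured synthesis enzymes that rose. It encodes the geranylgeranyl diphosphate synthase, which draws farnesyl diphosphate toward protein prenylation and ubiquinone and away from squalene. Its values were 7.77 to 8.08 (median 8.04) on GFP arrays and 8.06 to 8.63 (median 8.32) on ChREBP arrays, with ChREBP 4 the 1 array inside the GFP range. The difference was 0.35 (SE 0.09, adjusted p = 0.00941), and it passed in 25 of 25 alternatives. Fdft1 and Ggps1 compete for the same substrate, so the log2 value of Fdft1 minus that of Ggps1 was taken on each array. It was 3.12 ± 0.16 in GFP and 2.42 ± 0.23 in ChREBP livers (SD, n = 6 each), and the groups differed by -0.70 (SE 0.11). The exact two-sided permutation test over 924 assignments gave p = 0.00216, the smallest that 6 against 6 arrays can give (adjusted p = 0.00433 over 4 such pairs). The 4 pairs were chosen after the values of their genes were seen, so their p-values are descriptive and add no support to the single calls.

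Of the 4 genes of sterol sensing 3 fell, against 13.7% of all genes, and 1 did not pass. In all 3 that fell the groups were apart, against 6.83% of all genes. Insig1, whose own gene is a target of SREBP2, ran from 10.19 to 10.56 (median 10.51) in GFP livers and from 9.76 to 10.02 (median 9.87) in ChREBP livers. It fell by 0.58 (SE 0.07, adjusted p = 2.38e-05). Insig2, its relative with the same anchoring function, was at 11.77 ± 0.04 and 11.76 ± 0.09 (SD, n = 6 each), and the difference was -0.01 (SE 0.05, adjusted p = 0.896). The log2 value of Insig1 minus that of Insig2 differed between the groups by -0.57 (SE 0.06, exact permutation p = 0.00216, adjusted p = 0.00433 over the 4 pairs). This pair was chosen after the values of both genes were seen, and it restates the difference in Insig1. Both Insig genes were read on the same arrays, and only Insig1 was lower on every ChREBP array.

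Scap ran from 8.98 to 9.28 (median 9.14) on GFP arrays and from 8.56 to 8.84 (median 8.71) on ChREBP arrays, and it fell by 0.41 (SE 0.06, adjusted p = 0.000221). Srebf2 itself changed little. It ran from 7.44 to 7.63 (median 7.52) and from 7.33 to 7.44 (median 7.36), a difference of -0.15 (SE 0.04, 1.11-fold lower, adjusted p = 0.0150). Its groups touched at 7.44 after rounding and did not overlap. Srebf1, which encodes the SREBP of fatty acid synthesis, differed by 0.04 (adjusted p = 0.761). The difference between Srebf2 and Srebf1 did not pass the exact permutation test (-0.19, SE 0.09, p = 0.0693, adjusted p = 0.0693 over the 4 pairs). It passed without GFP 5 (-0.22, adjusted p = 0.0498) and without ChREBP 5 (-0.23, adjusted p = 0.0455), with a range of 0.0455 to 0.139 over its alternatives.

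**Figure D3:**
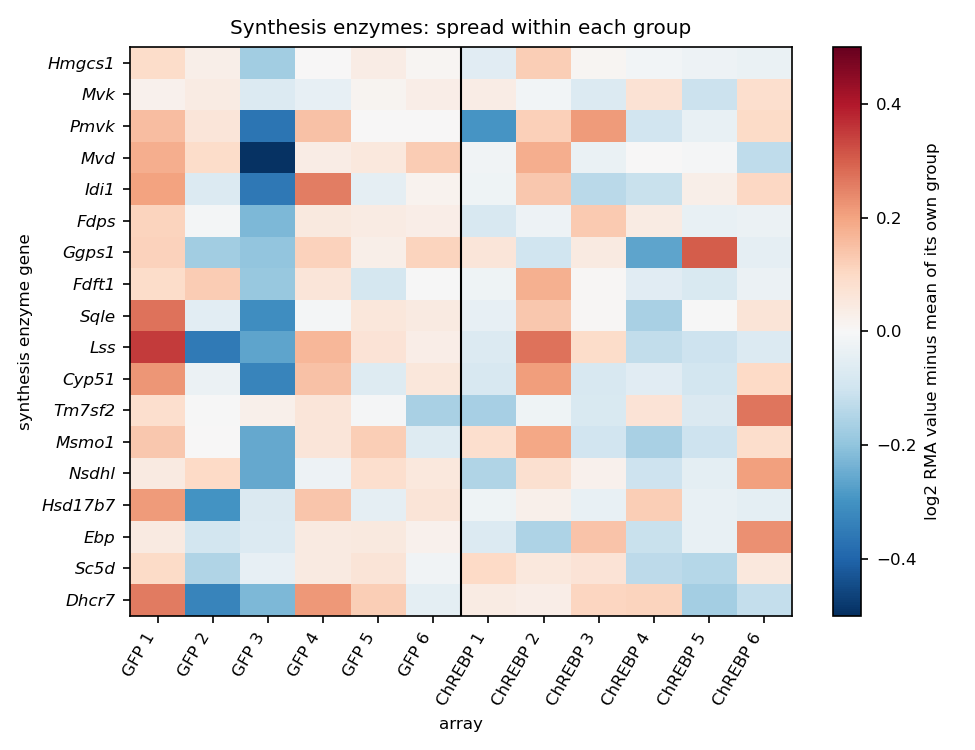
Deviation of each array from the mean of its own group (colour, log2 RMA values, blue below and red above) for the 18 measured synthesis enzymes (vertical axis) and the 12 arrays (horizontal axis), GFP on the left of the line. GFP 3 is blue in nearly every row, with a mean deviation of -0.21, and GFP 1 is red in every row, with a mean deviation of 0.15.

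Within the groups the synthesis enzymes moved together on some arrays, as the plot of deviations shows. GFP 1 lay above its group's mean in 18 of 18 enzymes and was the highest GFP array in 12. GFP 3 was the lowest GFP array in 12 and above the mean in 1. Among ChREBP arrays, ChREBP 2 was the highest in 8, with a mean deviation of 0.08. With GFP 1 and GFP 3 both left out, 14 enzymes were again lower. Sc5d was no longer called (adjusted p = 0.0771, range over its alternatives 0.00999 to 0.102) and Mvd was (-0.30, adjusted p = 0.00368, range 0.00102 to 0.306).

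Other genes around synthesis, from a list of textbook SREBP2 targets and further steps, were mixed. Of 8 measured genes 3 fell and 2 rose (62.5% called, against 27.0% of all genes). Mmab, a cobalamin enzyme gene that shares its promoter region with Mvk, differed by -0.34 (adjusted p = 0.00252), next to the -0.43 of Mvk. Erg28, which tethers the demethylation enzymes Msmo1 and Nsdhl at the membrane, differed by -0.24 (adjusted p = 0.00813), less than either of those. Tmem97, a partner of Npc1, differed by -0.27 (adjusted p = 0.0343). Aacs, which activates acetoacetate, rose by 0.31 (adjusted p = 0.0188) and the mitochondrial thiolase gene Acat1 by 0.14 (adjusted p = 0.0236). The calls of Tmem97 and Acat1 were lost in 11 and 7 of 25 alternatives. Tmem97 was no longer called once 1 of 6 arrays was dropped (GFP 1, 4 or 5, ChREBP 2, 3 or 5; -0.26 to -0.22, adjusted p = 0.0599 to 0.0738, range over its alternatives 0.00984 to 0.0962). Acat1 was no longer called without GFP 3 or GFP 6 (0.11 to 0.12, adjusted p = 0.0516 to 0.0533, range over its alternatives 0.00573 to 0.0932).

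The proteins that handle SREBP and sterol-regulated degradation included larger differences than those of the sensors. Of 9 measured genes 2 rose and 4 fell (66.7% called, against 27.0% of all genes). Rnf145, a sterol-responsive ubiquitin ligase that acts on Scap, was at most 7.40 on a GFP array and 8.05 to 8.31 on ChREBP arrays, a rise of 1.05 (SE 0.07, 2.07-fold, adjusted p = 1.27e-07). Paqr3, a Golgi protein that holds Scap and SREBP in that compartment, ran from 6.94 to 7.34 and from 6.11 to 6.44, and it fell by 0.88 (SE 0.07, adjusted p = 7.12e-07). Neither gene's groups overlapped. Erlin1, which binds cholesterol in the endoplasmic reticulum, fell by 0.41 (adjusted p = 0.00199), and its relative Erlin2 rose by 0.24 (adjusted p = 0.0322). The ubiquitin ligase gene Rnf139 differed by -0.20 (adjusted p = 0.0297) and Faf2 by -0.19 (adjusted p = 0.0314). The calls of Rnf145, Paqr3 and Erlin1 held in 25 of 25 alternatives, and those of the other three did not. Without 1 of 6 arrays (GFP 2, 3 or 6, ChREBP 1, 3 or 5) Erlin2 had an adjusted p of 0.0501 to 0.0647 (0.19 to 0.24), in a range of 0.00320 to 0.0822 over its alternatives. Without 1 of 7 (GFP 1, 2 or 4, ChREBP 2 to 5) that of Rnf139 was 0.0550 to 0.0642 (-0.19 to -0.18), in a range of 0.00552 to 0.114. Without 1 of 6 (GFP 1, 4, 5 or 6, ChREBP 5 or 6) that of Faf2 was 0.0506 to 0.0643 (-0.19 to -0.15), in a range of 0.00371 to 0.101.

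For sterol movement, Stard4 and Npc1 were measured. Stard4, a cytosolic sterol carrier and SREBP2 target, was the tightest of the fallen genes on ChREBP arrays, where it ran from 8.76 to 8.86 (median 8.80). On GFP arrays it ran from 9.20 to 9.48 (median 9.30), and it fell by 0.51 (SE 0.05, 1.42-fold, adjusted p = 3.60e-06). Npc1, which exports cholesterol from lysosomes, was at 9.98 ± 0.17 and 9.90 ± 0.19 (SD, n = 6 each), and its difference of -0.08 (SE 0.10, adjusted p = 0.570) lay within the spread of either group.

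Among 13 other measured genes of lysosomal and intracellular sterol transport, 3 rose and 4 fell (53.8% called, against 27.0% of all genes). Gramd1b, which moves cholesterol from the plasma membrane to the endoplasmic reticulum, rose by 0.99 (SE 0.07, adjusted p = 3.37e-07), from a GFP mean of 5.74 that lay under the median of all values (6.02), where sizes are uncertain without detection calls. The lysosomal genes Npc2 and Lipa rose by 0.36 (adjusted p = 0.00752) and 0.26 (adjusted p = 0.00126). Stard5, another sterol carrier, fell by 0.42 (adjusted p = 0.000869) and Scp2, a peroxisomal one, by 0.26 (adjusted p = 0.000874), whereas the oxysterol-binding protein genes Osbpl9 and Osbpl1a differed by -0.19 and -0.18.

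On the LXR side, 3 targets of efflux and uptake control were measured. Of Abca1, Abcg1 and Mylip, 1 rose and 0 fell, with a median difference of -0.08 and no gene whose groups were apart. With 1 of 3 called (33.3%, against 27.0% of all genes), nothing is read from the count. The promoter of Abca1, the exporter of cholesterol to lipid-poor apolipoprotein A-I, was chosen by name to be printed. Alone among the 22, it held a direct repeat of 4-base spacing, the kind of motif that LXR binds, against 0.226% of genes. The letters searched were GGTNA, any 5 bases, then GGTCA, on either strand. The repeat lies at bases -67 to -53 in chr4:53159896-53160145 (minus strand), and capitals mark it and the E-box at bases -147 to -142.
Abca1: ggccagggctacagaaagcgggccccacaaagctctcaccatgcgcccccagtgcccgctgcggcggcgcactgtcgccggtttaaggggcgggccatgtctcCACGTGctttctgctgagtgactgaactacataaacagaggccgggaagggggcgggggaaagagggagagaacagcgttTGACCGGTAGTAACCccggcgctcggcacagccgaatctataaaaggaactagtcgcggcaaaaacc

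Abca1 ran from 9.35 to 9.77 (median 9.55) on GFP arrays and from 9.01 to 9.51 (median 9.38) on ChREBP arrays. The groups overlapped, and the difference of -0.19 (SE 0.09, adjusted p = 0.151) did not pass in any of 25 alternatives. Abcg1, which passes cholesterol to formed high-density lipoprotein, ran from 7.13 to 7.36 (median 7.18) and from 7.26 to 7.52 (median 7.43), a difference of 0.18 (SE 0.06, adjusted p = 0.0371). This call was lost in 15 of 25 alternatives. Among them was leaving out a single array, namely any of GFP 3 to GFP 6 or any of ChREBP 2, 4, 5 and 6, after which the difference was 0.16 to 0.19 with an adjusted p of 0.0558 to 0.0795. Over its alternatives the adjusted p was 0.0207 to 0.197. Mylip, a ubiquitin ligase that degrades lipoprotein receptors, ran from 6.97 to 7.48 and from 7.04 to 7.22 (difference -0.08, SE 0.07, adjusted p = 0.422).

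Abca1 and Abcg1 lay on opposite sides of 0, and they were paired after this was seen. The log2 value of Abca1 minus that of Abcg1 was 2.32 ± 0.19 in GFP and 1.95 ± 0.28 in ChREBP livers (SD, n = 6 each), and the groups differed by -0.37 (SE 0.14, exact permutation p = 0.0216, adjusted p = 0.0289 over the 4 pairs). It was past the threshold no longer without GFP 1 (adjusted p = 0.0606), GFP 4 (0.0548), GFP 6 (0.0635), ChREBP 2 (0.0519) or ChREBP 6 (0.0519), with a range of 0.0144 to 0.106 over its alternatives. Nr1h3, the LXR alpha of hepatocytes and macrophages, ran from 8.10 to 8.28 and from 7.92 to 8.13 (difference -0.12, SE 0.05, adjusted p = 0.0772). It passed as lower with quantile normalization repeated (-0.17, adjusted p = 0.0157, range over its alternatives 0.0157 to 0.210).

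Of 10 other textbook LXR targets measured 7 rose, against 13.3% of all genes, and 1 fell, against 13.7%, with a median difference of 0.52. This count depends on how the lists were drawn. Srebf1 and Rnf145, also described as LXR targets, stood on the list of SREBP processing and degradation. They differed by 0.04 (adjusted p = 0.761) and 1.05 (adjusted p = 1.27e-07). Lpcat3, which remodels phospholipids, ran from 9.94 to 10.42 on GFP arrays and from 10.72 to 10.98 on ChREBP arrays, a rise of 0.60 (SE 0.07, adjusted p = 3.25e-05). Lpl, the lipoprotein lipase gene, ran from 7.81 to 8.83 and from 9.48 to 10.13, a rise of 1.35 (SE 0.17, adjusted p = 5.12e-05). Neither overlapped. Cd5l rose by 0.83 (adjusted p = 5.83e-05), Smpdl3a by 0.44 (adjusted p = 0.000126), Pltp by 0.80, Scd1 by 0.26 and Cyp7a1, the first enzyme of bile acid synthesis, by 0.60 (adjusted p = 0.0234). The study also reports ChREBP itself at the promoter of Scd1, and the part of LXR in these rises was not tested. The gene that fell was Abcg8 (-0.41, SE 0.12, adjusted p = 0.0194), and its partner Abcg5 in the canalicular sterol exporter was at -0.22 (SE 0.12, adjusted p = 0.202). The call of Cyp7a1 was lost in 6 of 25 alternatives. Among them were the analysis of variance (adjusted p = 0.0576) and leaving out GFP 5 or ChREBP 6 (0.52 to 0.56, adjusted p = 0.0517 to 0.0518, range over its alternatives 0.00555 to 0.0897). That of Abcg8 was lost with a block for replicate number (adjusted p = 0.0619), and when either ChREBP 4 with ChREBP 5 (0.0617) or GFP 1 with GFP 3 (0.0552) was omitted, in a range of 0.00785 to 0.0619.

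**Figure D4:**
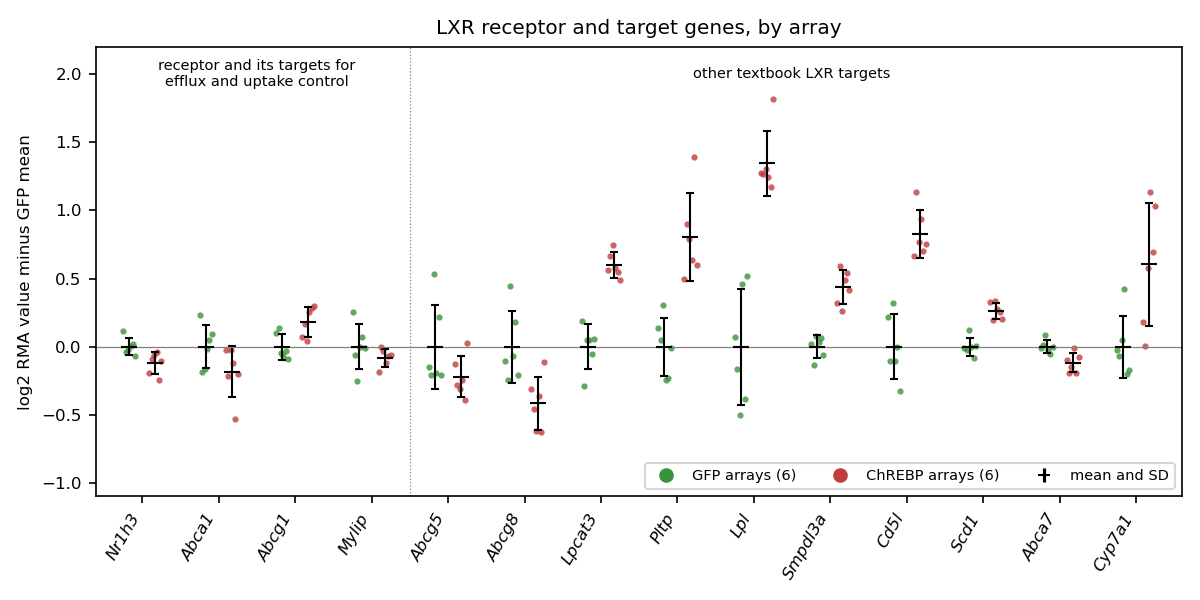
RMA values on the log2 scale minus the mean of the GFP arrays (vertical axis) for Nr1h3, 3 LXR targets of efflux and uptake control and 10 other LXR targets (horizontal axis), with the 6 GFP arrays in green, the 6 ChREBP arrays in red and a black bar at each mean, with its SD. Lpl (1.35), Cd5l (0.83) and Pltp (0.80) lie higher, Abcg8 (-0.41) lower, and the groups of Abca1, Abcg1 and Mylip overlap.

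Some of these targets are also made by macrophages and other cells, and Cd5l stands on the macrophage marker list as well. Of 15 macrophage and Kupffer cell markers 9 were higher in ChREBP livers, against 13.3% of all genes. Another 4 (Clec4f, Timd4, Marco and Vsig4) were lower, against 13.7%. The summed linear level of the 15 was 5281 to 6249 on GFP arrays and 6475 to 8478 on ChREBP arrays. That of 7 T and NK cell markers was 382 to 602 and 713 to 1445. That of 6 adipocyte markers was 301 to 727 and 699 to 1069, where Cidea rose by 3.15 and 4 of the 6 (Adipoq, Plin1, Lep and Retn) lay below 0. Gene values on this scale hold no 0, so no marker could be called absent. The part of these cells in the differences of Abcg1, Lpl, Cd5l and Pltp was not tested. Pancreatic acinar transcripts summed to 644 to 718 on GFP arrays and reached 43748 on ChREBP 4 and 38515 on ChREBP 5. They were at 1841 on ChREBP 2 and 927 on ChREBP 6, above the GFP arrays, and at 602 and 593 on ChREBP 1 and ChREBP 3. With ChREBP 4 and ChREBP 5 left out, 16 of the 28 genes passed, 11 of them synthesis enzymes that fell.

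Among 6 measured partners and coregulators of LXR 2 passed (33.3%, against 27.0% of all genes). Rxra, the shared dimer partner, fell by 0.40 (SE 0.07, adjusted p = 0.000493), and the coactivator gene Ncoa1 rose by 0.46 (SE 0.08, adjusted p = 0.000683). The groups of both were apart, those of Rxra at 9.21 to 9.55 and 8.85 to 9.19 and those of Ncoa1 at 7.48 to 7.77 and 7.89 to 8.34.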

How the data were processed

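The log2 values deposited by the authors were used. RMA and Partek, with no version, stand in the submitters' processing notes. RMA subtracts background, gives all arrays the same distribution by quantile normalization and combines each transcript's probes, so a shift shared by most genes is removed. Array medians were 5.96 to 6.05. Total RNA had been amplified and biotin-labelled with Nugen reagents for Affymetrix mouse gene arrays. Of 35556 rows, 21789 carry 1 gene symbol in the platform annotation, 1621 several, and 12146 are not listed there. A gene was represented by its brightest row, which gave 19938 genes, with no filter on dim ones. No probe intensities or detection calls were used, and the number of arrays limits the precision.

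Groups were compared with limma 3.58.1 (R 4.3.3), using lmFit and eBayes with no covariates, by a two-sided test with Benjamini-Hochberg adjustment. The procedure was tested on simulated data. The array methods of the study describe another overexpression and name an analysis of variance, which was kept as an alternative. Further alternatives were quantile normalization repeated, arrays centred on their medians, removal of the dimmest 25% of genes, averaged rows per gene, all rows tested, trended or robust moderation, array weights, a block for replicate number, each array omitted in turn, and ChREBP 4 with ChREBP 5, GFP 6 with ChREBP 6 or (added after the values were seen) GFP 1 with GFP 3 left out. Within-array differences of gene pairs were compared by exact permutation. The labels call the samples biological replicates.

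The genes and lists were chosen with earlier results of these data known. All members are named, with up to 4 passing genes of smallest p from each other list. Further genes that complete a count or share a step were named after their values were seen. Marker sums are sums of linear values. Promoter sequences are RefSeq's, of GRCm38.p6, which served for sequence and its position only.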

Additional observations from a re-analysis of the deposited data

Results flagged for a closer look

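In 8 of 56 groups of 6 arrays, counted over the 28 measured genes, 1 array stood far from the other five, measured by its gap to the nearest one as a share of the group's range. Chance gives about 1 in 20 such groups. In 5 of the 8 the array was GFP 3, and it was the low one each time. GFP 3 was at 6.88 for Mvd, where the next lowest GFP array was at 7.41. It was at 7.81 for Pmvk, with the next at 8.18, and at 10.57 for Nsdhl, with the next at 10.81. For Hmgcs1 it was at 10.78 (next 10.95) and for Fdps at 10.72 (next 10.94). ChREBP 2 was the high array for Hmgcs1, at 10.89 with the next at 10.78, and for Fdft1, at 10.93 with the next at 10.75. GFP 6 was the low array for Tm7sf2, at 8.48 with the next at 8.64. The summed levels of acinar and adipocyte markers on GFP 3 were 714 and 344, and those of the other GFP arrays were 644 to 718 and 301 to 727. Why GFP 3 was low was not tested.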

How the results depend on the processing

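Over 25 alternatives per measured gene, 669 of 700 results kept their call and none changed direction while called. Of the 20 genes that passed, 16 never lost the call; Hmgcs1, Pmvk, Sc5d and Abcg1 did. With quantile normalization repeated, 2 synthesis enzymes were higher (Fdps besides Ggps1) and 13 lower. The count of LXR targets that rose, 1 as reported, was 0 with quantile normalization repeated, median centring, all rows tested, the replicate block, and without ChREBP 4 and ChREBP 5, GFP 6 and ChREBP 6, or GFP 1 and GFP 3. With 1 array left out at a time it was 0 to 1, the synthesis enzymes that fell were 14 to 15, the members that passed 19 to 21, and all genes that passed 4656 to 5632. Replicate numbers did not pair the arrays: deviations of same-numbered arrays correlated at -0.06 to 0.25, and 1 of 6 arrays matched its own number best. With the replicate block 4439 genes passed in place of 5375, with 16 members and 11 synthesis enzymes that fell among them. The causes were not tested. Without detection calls, values near the median of all values (6.02), such as those of Paqr3 and Gramd1b, give uncertain sizes.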

Other observations

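Of 11 measured genes that use isoprenoids, the products of Fdps and Ggps1, 2 rose and 1 fell. That is 27.3% called, next to 27.0% of all genes. Pggt1b, a subunit of the enzyme that attaches geranylgeranyl groups to proteins, rose by 0.32 (SE 0.10, adjusted p = 0.0226) and Zmpste24, a protease that trims farnesylated proteins, by 0.19 (adjusted p = 0.0289). Dhdds, which makes the dolichol chain, fell by 0.30 (SE 0.09, adjusted p = 0.0209), a call lost when either ChREBP 4 with ChREBP 5 (adjusted p = 0.0520) or GFP 6 with ChREBP 6 was omitted (adjusted p = 0.0541), in a range of 0.00350 to 0.0541. Without GFP 3 or ChREBP 2, left out singly, Pggt1b had an adjusted p of 0.0517 to 0.0518 (0.29, range over its alternatives 0.00669 to 0.0539). Without 1 of 5 arrays (GFP 3 or 6, ChREBP 1, 2 or 3) that of Zmpste24 was 0.0573 to 0.0645 (0.15 to 0.18, range 0.00618 to 0.187). The genes that did not pass lay between -0.26 (Pdss2, adjusted p = 0.0628) and 0.07 (Rce1, adjusted p = 0.456). Pdss2 passed as lower in 5 of 25 alternatives, among them without GFP 2 (-0.34, adjusted p = 0.00433) and without ChREBP 6 (-0.30, adjusted p = 0.0441), with a range of 0.00433 to 0.252.

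Of 7 measured enzymes that make or clear oxysterols, 3 fell and 1 rose (57.1% called, against 27.0% of all genes). Cyp7b1, an oxysterol hydroxylase gene, ran from 10.98 to 11.52 on GFP arrays and from 7.74 to 8.60 on ChREBP arrays, and it fell by 3.14 (SE 0.15, 8.84-fold). Cyp27a1 fell by 0.70 (adjusted p = 3.15e-06) and Hsd3b7 by 0.62 (adjusted p = 7.85e-06), both without overlap between groups. Cyp46a1 rose by 0.29 (adjusted p = 0.00445), from a GFP mean of 5.96 under the median of all values. Of 7 measured genes of lipoprotein cholesterol uptake and plasma esterification, 1 rose and 3 fell (also 57.1% called). Nceh1, a cholesteryl ester hydrolase gene, rose by 0.70 (SE 0.09, adjusted p = 5.54e-05). Apoa1 fell by 0.27 (adjusted p = 0.000346), Lcat by 0.29 (adjusted p = 0.00420) and Lrp1 by 0.38 (adjusted p = 0.0122). The call of Lrp1 was lost without GFP 1 and GFP 3 (-0.32, adjusted p = 0.0713, range over its alternatives 0.00641 to 0.0713). Scarb1, the receptor for high-density lipoprotein, was at 8.71 in GFP and 8.67 in ChREBP livers (difference -0.03, adjusted p = 0.696).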
